A study of Mus musculus with 35 samples.

Results

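Esrrb was examined as 1 of 4 delivered reprogramming factors by setting the 3 JEGS libraries of days 2, 4 and 6 against the 3 JEGS-Minus-Esrrb libraries of the same days, 6 of the 35 libraries of the series. JEGS cells received retroviruses for Jdp2, Esrrb, Glis1 and Sall4, and JEGS-Minus-Esrrb cells received Jdp2, Glis1 and Sall4. Both groups were mouse embryonic fibroblasts of passage 2 from E13.5 embryos, sired by carriers of an Oct4-GFP transgenic allele (CBA/CaJ × C57BL/6J) with 129S12/SvJaeJ dams. They were infected for 48 hours and then kept in iCD3 medium with Rock inhibitor for the stated number of days. The labels name no sort, and in such bulk libraries fewer cells of a type cannot be told apart from less RNA per cell. Each group has 1 library a day. With day as a factor the 3 days stand as replicates, the labels do not say that they came from separate cultures, and p-values therefore reflect only how much these libraries vary.

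Esrrb is an orphan nuclear receptor of the estrogen-related receptor family, which binds DNA without an added hormone at an extended core element. In mouse embryonic stem cells it belongs to the naive pluripotency network beside Oct4 (Pou5f1), Sox2, Nanog, Klf2, Klf4 and Tfcp2l1, and it lies downstream of Wnt signaling and Nanog. The other members of the family, Esrra and Esrrg, are best known as activators of mitochondrial respiration and fatty acid oxidation genes, together with the Ppargc1 coactivators.

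The element of the estrogen-related receptors was read in the promoters of metabolic genes that were higher in JEGS, because these genes are textbook targets of the family. Windows ran from 250 bases before to 50 bases after the start site, taken from RefSeq with build GRCm38.p6. The letters TCAAGGTCA and their core AAGGTCA, which every TCAAGGTCA also holds, were searched on both strands. Of 24 metabolic genes listed as targets, 20 had a window, of which 1 held TCAAGGTCA and 4 (20%) held AAGGTCA. Of the 10 that rose, 9 had a window, of which 1 held TCAAGGTCA and 3 held AAGGTCA. In the list of oxidative phosphorylation genes 1 of 21 windows held both, and 0 of the 5 windows of its members that rose held either. In the pluripotency list 0 of 20 windows held either. All genes tested had 11872 windows, of which 0.27% held TCAAGGTCA and 3.21% held AAGGTCA. Windows of genes higher in JEGS held them in 0.209% and 4.18% of 478 cases, and windows of genes lower in JEGS in 0% and 1.93% of 311 cases. None of the 8 windows found for the 12 genes with the largest rise held either motif. The 3 metabolic windows follow 5′ to 3′ on the minus strand of the chromosome, which is the strand of each gene, with the motif in capitals. The capitals of Atp5g3 and Acadm read as the reverse complement, since the match is on the strand opposite to the gene. Atp5g3, a subunit of the ATP synthase, is at chr2:73911277-73911576, Acadm, a dehydrogenase of fatty acid oxidation, at chr3:153944594-153944893, and Got1, the cytosolic aspartate aminotransferase, at chr19:43524556-43524855.
Atp5g3: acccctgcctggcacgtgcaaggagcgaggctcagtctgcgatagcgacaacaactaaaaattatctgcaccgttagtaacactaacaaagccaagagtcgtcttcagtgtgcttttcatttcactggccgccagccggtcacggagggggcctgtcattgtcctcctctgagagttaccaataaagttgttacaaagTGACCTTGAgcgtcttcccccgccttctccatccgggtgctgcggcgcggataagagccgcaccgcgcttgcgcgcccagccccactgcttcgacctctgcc
Acadm: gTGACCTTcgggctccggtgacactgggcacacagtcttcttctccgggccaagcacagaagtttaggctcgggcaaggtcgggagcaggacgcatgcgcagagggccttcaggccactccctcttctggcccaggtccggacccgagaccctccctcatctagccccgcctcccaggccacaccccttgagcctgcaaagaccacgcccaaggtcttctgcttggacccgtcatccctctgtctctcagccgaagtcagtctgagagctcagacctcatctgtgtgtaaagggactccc
Got1: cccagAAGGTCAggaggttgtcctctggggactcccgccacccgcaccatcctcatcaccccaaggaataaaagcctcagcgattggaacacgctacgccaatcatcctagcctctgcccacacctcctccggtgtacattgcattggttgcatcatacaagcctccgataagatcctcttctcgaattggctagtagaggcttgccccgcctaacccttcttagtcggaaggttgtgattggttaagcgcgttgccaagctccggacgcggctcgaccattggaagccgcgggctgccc
The match begins 52 bases before the start site in Atp5g3, 249 before it in Acadm and 245 before it in Got1. A match is a description of letters and not a bound site.

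Esrrb was measured at 2593, 1810 and 961.2 CPM (read counts scaled to the size of the library) on days 2, 4 and 6 in JEGS, against 57.9, 17.5 and 19.0 CPM in JEGS-Minus-Esrrb, a log2 fold change of 5.85 ± 0.36 (SE; edgeR adjusted p = 2.9e-07). The groups did not overlap, and the libraries followed their names, although 1 treatment field lists all 4 factors for every sample. Reads of delivered and endogenous transcripts were counted together. The 3 factors that both groups received were not equal. Sall4 was at 2982, 2111 and 1247 CPM in JEGS and at 5164, 3248 and 1859 CPM in JEGS-Minus-Esrrb, a log2 fold change of -0.66 ± 0.19 (edgeR adjusted p = 0.047). This call was lost without any 1 of the JEGS libraries or of the JEGS-Minus-Esrrb libraries of days 2 and 4, at adjusted p from 0.085 to 0.2. Jdp2 was at 896.4, 580.4 and 257.5 CPM in JEGS and at 1357, 778.8 and 428.2 CPM in JEGS-Minus-Esrrb. Glis1 was at 345.9, 204.3 and 84.4 CPM in JEGS and at 478.7, 312.8 and 270.5 CPM in JEGS-Minus-Esrrb. On each day, JEGS had less of the 3 shared factors, though neither Jdp2 (edgeR adjusted p = 0.24) nor Glis1 (edgeR adjusted p = 0.13) passed the test. Both passed with no filter on low counts (edgeR adjusted p = 0.0083 for Jdp2 and 0.00067 for Glis1). Glis1 also passed, narrowly, with the 6 libraries alone. In the other settings that kept all 6 libraries they did not pass. The part of these lower levels in the results that follow was not tested.

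Depth was 1266379 to 1682386 counts in JEGS and 1434944 to 1589826 in JEGS-Minus-Esrrb. A kit and a run are not assigned to a library in the labels, so a difference in library preparation between the groups cannot be told apart from the delivery of Esrrb. The fibroblast markers Pdgfra and Prrx1 were present in all 6 libraries. Pdgfra was at 51.9 to 230.1 CPM in JEGS and 168.9 to 243.4 CPM in JEGS-Minus-Esrrb. Prrx1 was at 73.8 to 125.1 CPM in JEGS and 85.7 to 134.7 CPM in JEGS-Minus-Esrrb. Among the other markers set for fibroblasts, Pdgfrb, Twist1, Col1a1 and Col1a2 passed as lower in JEGS and Col3a1 as higher, and Thy1 did not pass. The summed level of 15 macrophage and blood cell genes was 7.72 to 20 CPM in JEGS and 6.33 to 22.2 CPM in JEGS-Minus-Esrrb, with Ptprc at 0 in 2 libraries of each group. The summed level of 16 skeletal muscle genes was 81.2 to 163.1 CPM in JEGS and 46.3 to 63.6 CPM in JEGS-Minus-Esrrb, with Myog at 0 in all 6.

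Of 16603 genes tested, 1101 (6.63%) passed at an edgeR adjusted p under 0.05, 670 (4.04%) higher and 431 (2.6%) lower in JEGS. The CPM of the 3 days did not overlap in 1485 genes with JEGS above (8.94% of those tested) and in 1329 with JEGS below (8%). The count rests on single libraries. Without the JEGS libraries of days 2, 4 and 6, 359, 279 and 661 genes were higher and 248, 190 and 287 lower. Without the JEGS-Minus-Esrrb libraries of these days, 459, 352 and 502 were higher and 298, 264 and 391 lower. Without day 4 in all groups, 43 genes were higher and 29 lower.

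Among genes with a mean of at least 5 CPM over the 6 libraries and the same sign on each day, the 12 with the largest rise included 3 of the pluripotency network (Lefty2, Utf1 and Tfcp2l1) and 2 nuclear receptors (Nr0b1 and Nr5a2). Nr0b1, an orphan receptor (Dax1) of embryonic stem cells, had 11.6, 31.9 and 49.4 CPM in JEGS and 1.27, 0 and 0 CPM in JEGS-Minus-Esrrb. In reads this was 151 against 2, a ratio of 79.2 with a 95% counting interval of 21.5 to 660 (edgeR adjusted p = 0.00024). Lefty2, a secreted antagonist of Nodal, had 2.32, 7.28 and 56.2 CPM in JEGS and 0, 0 and 0.576 CPM in JEGS-Minus-Esrrb, 106 reads against 1 (edgeR adjusted p = 0.00064). Utf1, a chromatin factor of undifferentiated embryonic cells, had 6.95, 15.1 and 115.6 CPM in JEGS and 1.27, 0 and 1.73 CPM in JEGS-Minus-Esrrb, a log2 fold change of 5.23 ± 0.68 (edgeR adjusted p = 0.00043). All 3 genes were lowest on day 2 and highest on day 6 in JEGS, and no JEGS library overlapped a JEGS-Minus-Esrrb library. Over all genes tested, 8.94% had JEGS above without overlap. Genes picked for a large change of 1 sign on all days seldom overlap by that choice. Lack of overlap therefore adds no support for the named genes here and below.

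Other genes were highest on day 2, the first day with a JEGS library. Psca, a GPI-anchored surface protein, had 101.1, 61.6 and 11.9 CPM in JEGS and 3.18, 0.626 and 1.15 CPM in JEGS-Minus-Esrrb, a log2 fold change of 5.0 ± 0.66 (edgeR adjusted p = 0.0003). Ano5, of the anoctamin family of membrane proteins, had 30.1, 8.40 and 2.5 CPM in JEGS and 0.636, 0 and 0 CPM in JEGS-Minus-Esrrb, 58 reads against 1 (edgeR adjusted p = 0.0065). Pglyrp1, an innate immune protein that binds peptidoglycan, had 120.4, 96.3 and 74.4 CPM in JEGS and 1.91, 6.25 and 1.73 CPM in JEGS-Minus-Esrrb, a log2 fold change of 4.95 ± 0.50 (edgeR adjusted p = 4.4e-05). These 3 genes declined over the days in JEGS, and no library overlapped between groups. Mpzl2, an adhesion molecule of epithelia, had 17.0, 31.3 and 35 CPM in JEGS and 0, 0 and 2.30 CPM in JEGS-Minus-Esrrb. Zyg11a had 15.4, 25.2 and 16.2 CPM in JEGS and 0, 1.25 and 0.576 CPM in JEGS-Minus-Esrrb, and Fam81a had 45.6, 50.4 and 24.4 CPM in JEGS and 0, 1.88 and 2.30 CPM in JEGS-Minus-Esrrb. Rbmxl2, an RNA-binding protein of male germ cells, had 0.772, 6.72 and 48.1 CPM in JEGS and 0, 0.626 and 0 CPM in JEGS-Minus-Esrrb, and most of its 90 JEGS reads came from day 6. Of the 12, 10, all but Nr5a2 and Rbmxl2, kept the call without each 1 of the 6 libraries, and 6 kept it without day 4. Rbmxl2 lost it without either day 6 library, at edgeR adjusted p of 0.09 and 0.17.

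Among the 12 genes with the largest fall, Sp7 (osterix), a transcription factor required for osteoblasts, had 2.32, 1.68 and 1.88 CPM in JEGS and 82.0, 74.4 and 48.3 CPM in JEGS-Minus-Esrrb, a log2 fold change of -5.07 ± 0.51 (edgeR adjusted p = 8.8e-05). Col8a2, a short-chain collagen, had 13.1, 9.52 and 13.8 CPM in JEGS and 469.2, 228.9 and 109.9 CPM in JEGS-Minus-Esrrb, a log2 fold change of -4.32 ± 0.44 (edgeR adjusted p = 4.4e-05). JEGS was flat over the days in both genes while JEGS-Minus-Esrrb declined, without overlap. Cfc1 (Cryptic), a Nodal coreceptor, had 0, 0 and 0.625 CPM in JEGS and 17.2, 17.5 and 13.2 CPM in JEGS-Minus-Esrrb, 1 read against 78 (edgeR adjusted p = 0.0036). Foxl1, a forkhead factor of gut mesenchyme, had 0, 0.56 and 0 CPM in JEGS and 19.07, 10.01 and 2.88 CPM in JEGS-Minus-Esrrb. Dlx1, a homeobox factor of forebrain and jaw, had 0, 1.12 and 1.25 CPM in JEGS and 14.0, 19.4 and 12.1 CPM in JEGS-Minus-Esrrb. Fibcd1, a receptor for acetylated structures such as chitin, had 0, 0.56 and 0.625 CPM in JEGS and 24.8, 23.1 and 12.7 CPM in JEGS-Minus-Esrrb.

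The other 6 were Cd83, Elmod1, A2ml1, Rarres1, Ggt5 and Gng8, at means of 0.373 to 0.933 CPM in JEGS and 11.01 to 22.45 CPM in JEGS-Minus-Esrrb. Only Rarres1 of the 12 overlapped between groups, at 0.772, 0.56 and 0 CPM in JEGS and 22.2, 11.3 and 0.576 CPM in JEGS-Minus-Esrrb. Over all genes tested, 8% had JEGS below without overlap, and the choice of these 12 by size and sign favors genes without overlap. Cfc1, Fibcd1, Sp7, Elmod1, Col8a2 and Ggt5 kept the call without each 1 of the 6 libraries, and 2 of the 12 kept it without day 4. Foxl1 lost it without the JEGS library of day 2 (edgeR adjusted p = 0.068). Dlx1 lost it without any library but the JEGS library of day 6, at edgeR adjusted p from 0.055 to 0.11.

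**Figure D1:**
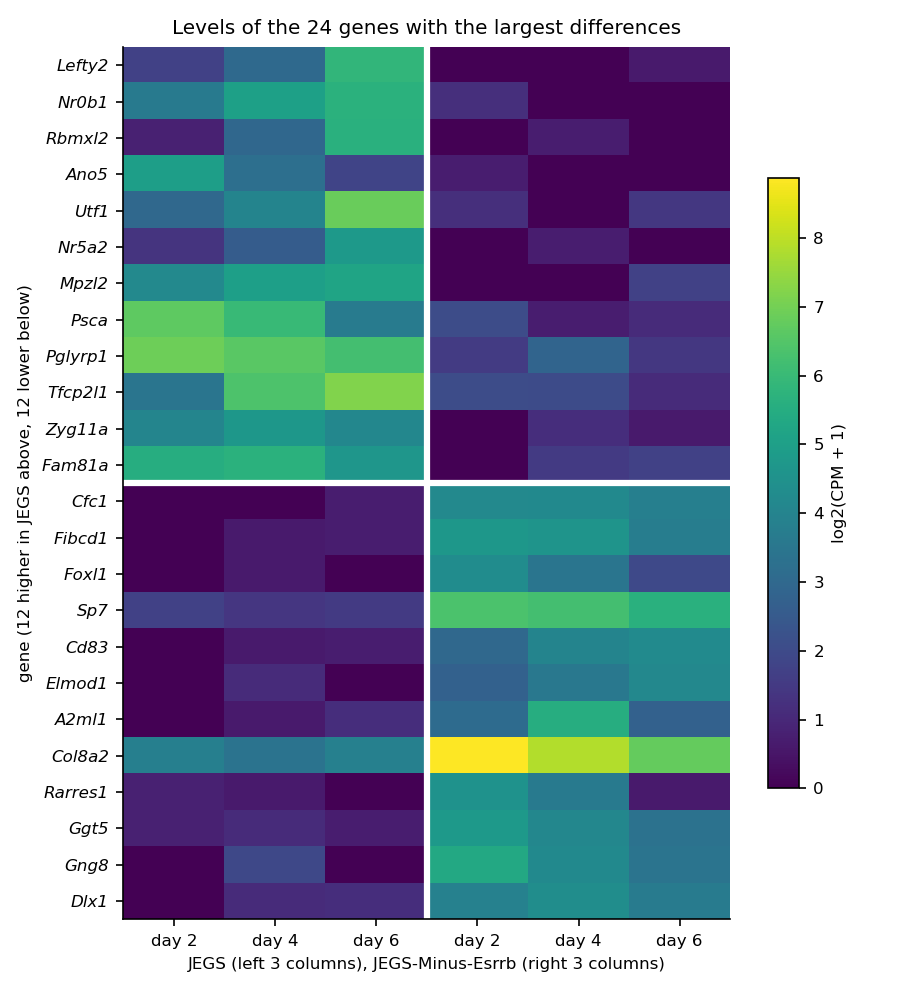
Level of the 24 genes, as log2(CPM + 1) on the color scale, in the 3 JEGS libraries (left) and the 3 JEGS-Minus-Esrrb libraries (right), 1 library a column. Lefty2, Utf1 and Rbmxl2 brighten towards day 6 in JEGS, Psca and Ano5 fade, and Sp7 and Col8a2 stand out in JEGS-Minus-Esrrb at 48.3 to 82.0 and 109.9 to 469.2 CPM.

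Many pluripotency genes were higher in JEGS on days 4 and 6. Of 32 listed members, JEGS was above JEGS-Minus-Esrrb in 12 on day 2, 26 on day 4 and 31 on day 6, against 46.6%, 50.1% and 49.3% of all genes tested. Of the 28 members that passed the filter on low values, 13 (46.4%) rose and 0 fell, against 4.04% and 2.6% of all genes tested. A member that reached the filter only through libraries in which it is high had to differ. Sox2, the partner of Oct4, was already apart on day 2, at 124.3, 101.9 and 201.9 CPM in JEGS and 29.9, 30.0 and 25.3 CPM in JEGS-Minus-Esrrb, a log2 fold change of 2.30 ± 0.29 (edgeR adjusted p = 0.00023). Tfcp2l1, a naive-state transcription factor, had 10.0, 84.0 and 144.4 CPM in JEGS and 3.18, 3.13 and 1.15 CPM in JEGS-Minus-Esrrb, a log2 fold change of 4.85 ± 0.81 (edgeR adjusted p = 0.0019). Klf5, a Krüppel-like factor, had 60.2, 86.8 and 95 CPM in JEGS and 31.8, 33.1 and 25.3 CPM in JEGS-Minus-Esrrb, a log2 fold change of 1.42 ± 0.24 (edgeR adjusted p = 0.002). All 3 were separated between groups on every day.

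Nanog had 6.95, 38.6 and 145.0 CPM in JEGS and 3.18, 4.38 and 2.30 CPM in JEGS-Minus-Esrrb, a log2 fold change of 3.75 ± 0.77 (edgeR adjusted p = 0.0077). L1td1, an RNA-binding protein of pluripotent cells, had 6.18, 36.4 and 171.9 CPM in JEGS and 0, 4.38 and 7.48 CPM in JEGS-Minus-Esrrb, a log2 fold change of 3.93 ± 0.47 (edgeR adjusted p = 0.00019). Their JEGS levels on day 2 were near or within the range of JEGS-Minus-Esrrb, and those of days 4 and 6 were far above it. Markers of a late stage were at 0 on day 2 in both groups. Dppa5a, an RNA-binding protein of pluripotent cells, had 0, 6.72 and 170.6 CPM in JEGS and 0, 0 and 1.73 CPM in JEGS-Minus-Esrrb (edgeR adjusted p = 0.0024), with 285 reads against 3. Tdgf1 (Cripto), a Nodal coreceptor, had 0, 18.5 and 86.9 CPM in JEGS and 0, 0 and 1.73 CPM in JEGS-Minus-Esrrb (edgeR adjusted p = 0.0015). Dppa2 and Dppa3, chromatin proteins of early embryos, had 87 and 39 reads in JEGS and 0 in JEGS-Minus-Esrrb, at least 30.4-fold and 13.6-fold higher against a floor of 3 reads over the group (edgeR adjusted p = 0.0058 and 0.037). Gdf3 (62 reads against 1), Lefty1 (72 against 7), Lefty2 and Utf1 also rose.

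Pou5f1 (Oct4), the factor that defines the pluripotent state, had 16.2, 104.1 and 371.9 CPM in JEGS and 22.2, 20.02 and 11.51 CPM in JEGS-Minus-Esrrb. JEGS was below JEGS-Minus-Esrrb on day 2 and above it on days 4 and 6. The mean difference, a log2 fold change of 2.34 ± 0.71, did not pass (edgeR adjusted p = 0.061), and it passed without the JEGS library of day 2 (0.034), without the JEGS-Minus-Esrrb library of day 2 (0.0035), without day 2 (0.0046) and with all libraries thinned to the same depth (0.035). Klf2 (0, 30.8 and 135.0 CPM in JEGS, 21.6, 3.75 and 4.03 CPM in JEGS-Minus-Esrrb), Zfp42 (0, 9.52 and 51.2 CPM in JEGS, 1.91, 0 and 0 CPM in JEGS-Minus-Esrrb) and Klf4 (15.4, 43.7 and 67.5 CPM in JEGS, 18.4, 22.5 and 9.21 CPM in JEGS-Minus-Esrrb) had the same crossing and did not pass. Fbxo15 had 62 reads in JEGS and 4 in JEGS-Minus-Esrrb, Dppa4 63 and 3, Fgf4 44 and 7, and Nodal 42 and 14, none past the test. Tet1, a DNA demethylase, had 11.6, 32.5 and 123.7 CPM in JEGS and 9.54, 18.1 and 35.7 CPM in JEGS-Minus-Esrrb, and Tet2 had 12.4, 33.0 and 77.5 CPM in JEGS and 19.7, 20.02 and 31.7 CPM in JEGS-Minus-Esrrb. Prdm14, Tcl1, Dnmt3l and Tex19.1 missed the filter, with 17, 28, 43 and 30 reads in JEGS and 0, 0, 0 and 1 in JEGS-Minus-Esrrb.

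The RNA-binding protein Lin28a had the reverse order early on. It was at 2.32, 12.9 and 96.2 CPM in JEGS and 17.8, 61.3 and 21.9 CPM in JEGS-Minus-Esrrb, and its paralog Lin28b at 0.772, 1.12 and 9.38 CPM in JEGS and 6.36, 8.13 and 7.48 CPM in JEGS-Minus-Esrrb. Neither passed the test, nor did Tbx3 (48.6, 58.8 and 106.2 CPM in JEGS, 36.9, 78.8 and 146.2 CPM in JEGS-Minus-Esrrb), Trim28 or Ncoa3, both at 46.4 CPM or more in all 6 libraries. Of the 13 calls, 7 (Sox2, Klf5, Tfcp2l1, Utf1, Tdgf1, L1td1 and Lefty2) held without each 1 of the 6 libraries. The count was 8 without the JEGS library of day 6, 7 without the JEGS-Minus-Esrrb library of day 6, 5 without day 4, 4 without day 6 and 6 by DESeq2. Some of these genes were also higher in JEGS than in groups that received Esrrb and lacked another factor. In the same fit, Utf1 was higher by 5.81, 3.83 and 9.68 on the log2 scale than without Glis1, Jdp2 and Sall4. Pou5f1 was higher by 4.97, 3.19 and 8.57, each past the test. Tfcp2l1 (0.778) and Lefty2 (1.605) did not pass against the group without Jdp2.

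**Figure D2:**
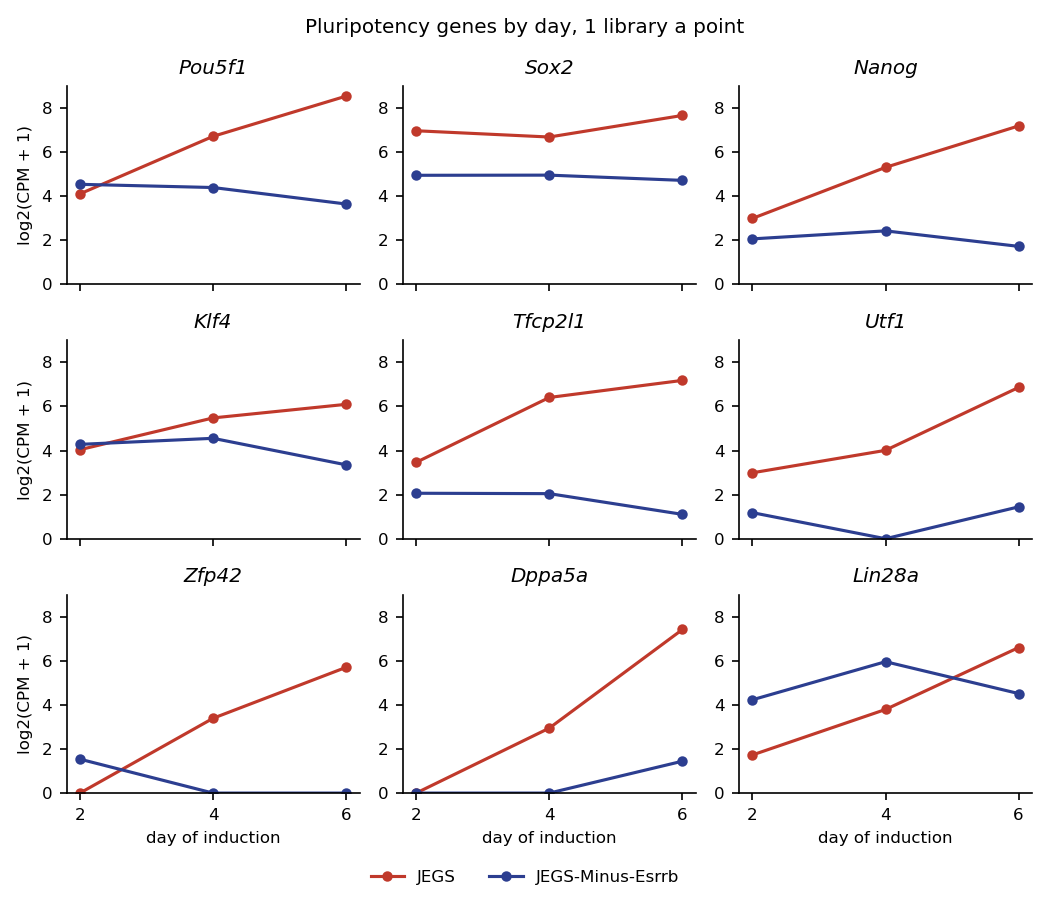
Level of 9 pluripotency genes, as log2(CPM + 1), by day in JEGS and JEGS-Minus-Esrrb, 1 library a point. JEGS rises from day to day in each panel but that of Sox2, Sox2 is already apart on day 2 at 124.3 against 29.9 CPM, and Lin28a is lower in JEGS until day 4.

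Of the nuclear receptors close to Esrrb, 8 of 9 listed passed the filter. Nr0b1 and Nr5a2 rose, 25% of the 8, against 4.04% of all genes tested. Nr5a2 (Lrh-1), an activator of Pou5f1 in embryonic cells, had 1.54, 5.04 and 26.9 CPM in JEGS and 0, 0.626 and 0 CPM in JEGS-Minus-Esrrb, 54 reads against 1, with a ratio of 56.6 and a 95% counting interval of 9.74 to 2277. Its edgeR adjusted p was 0.048, and it lost the call without any 1 of the 6 libraries, at adjusted p from 0.054 to 0.29. Esrra, the family member with the widest role in respiration, had 57.9, 51.5 and 27.5 CPM in JEGS and 33.7, 31.3 and 25.9 CPM in JEGS-Minus-Esrrb and did not pass (edgeR adjusted p = 0.15). Esrrg had 3 reads in JEGS and 12 in JEGS-Minus-Esrrb, and Nr0b2 had 4 and 2. Nr2f1, Nr2f2 and Nr6a1, receptors better known from differentiating cells, were at 3.09 to 51.9 CPM in JEGS and 10.0 to 65.0 CPM in JEGS-Minus-Esrrb and did not pass. Nr5a1 missed the filter, with 1 and 8 reads.

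A part of the mitochondrial metabolism genes passed as higher in JEGS. Of 24 genes known as targets of estrogen-related receptors, 10 (41.7%) rose and 0 fell, against 4.04% and 2.6% of all genes tested. Their median log2 fold change was 0.64, against 0.02 over all genes. Pdk4, the kinase that holds pyruvate out of the citrate cycle, had 61.8, 61.6 and 30.0 CPM in JEGS and 3.81, 5.63 and 16.7 CPM in JEGS-Minus-Esrrb, a log2 fold change of 2.53 ± 0.43 (edgeR adjusted p = 0.0021). Got1 had 114.3, 120.9 and 83.1 CPM in JEGS and 43.2, 45.7 and 33.4 CPM in JEGS-Minus-Esrrb, a log2 fold change of 1.39 ± 0.21 (edgeR adjusted p = 0.0008). Acadm had 64.9, 80.04 and 72.5 CPM in JEGS and 38.1, 32.5 and 39.1 CPM in JEGS-Minus-Esrrb, a log2 fold change of 0.996 ± 0.207 (edgeR adjusted p = 0.0082). Sod2, the mitochondrial superoxide dismutase, had 149.8, 132.1 and 108.7 CPM in JEGS and 62.3, 85.1 and 50.6 CPM in JEGS-Minus-Esrrb (edgeR adjusted p = 0.005). Atp5g3, whose window held the full element, had 304.2, 236.8 and 188.1 CPM in JEGS and 148.1, 168.9 and 164.0 CPM in JEGS-Minus-Esrrb, a log2 fold change of 0.58 ± 0.16 (edgeR adjusted p = 0.037). None of these genes overlapped between groups. Atp5b, Cox6a1, Cycs and Slc25a4 rose by 0.63 to 0.89 on the log2 scale. The coactivators Ppargc1a and Ppargc1b did not pass, at 2.32 to 3.12 and 6.88 to 45.6 CPM in JEGS and 1.25 to 2.54 and 13.4 to 20.02 CPM in JEGS-Minus-Esrrb. Pdk4, Got1, Sod2, Atp5b and Slc25a4 held without each 1 of the 6 libraries. The count of 10 was 6 without the JEGS library of day 2, 5 without that of day 4, 5 without the JEGS-Minus-Esrrb library of day 4, 3 without day 2 and 0 without day 4.

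All 30 nuclear genes of oxidative phosphorylation had a positive log2 fold change, from 0.12 to 1.23, with a median of 0.49. Of them 10 (33.3%) rose and 0 fell, against 4.04% and 2.6% of all genes tested. Cox5a, a subunit of cytochrome oxidase, rose most, at 205.4, 176.3 and 148.1 CPM in JEGS and 90.3, 82.6 and 57.0 CPM in JEGS-Minus-Esrrb. Its log2 fold change was 1.23 ± 0.16 (edgeR adjusted p = 0.0003). Cox4i1 and Cox6c of the same complex and Ndufa9 of complex I rose by 0.76 to 0.81 on the log2 scale. JEGS was above JEGS-Minus-Esrrb in 30 of 30 members on days 2 and 4 and in 22 on day 6. Only Cox5a, Cox6c and Atp5b held without each 1 of the 6 libraries. The count was 3 and 4 without the JEGS libraries of days 2 and 4, 4 without either JEGS-Minus-Esrrb library of these days, 1 without day 2 and 0 without day 4. In all, 7 (24.1%) of 29 genes of the citrate cycle and fatty acid oxidation rose and 0 fell. Idh2, the mitochondrial NADP isocitrate dehydrogenase, was the largest of those that rose, at 444.0, 281.5 and 175.6 CPM in JEGS and 69.9, 97.0 and 161.1 CPM in JEGS-Minus-Esrrb, a log2 fold change of 1.40 ± 0.31 (edgeR adjusted p = 0.012). Ogdh, Sucla2 and Acadm rose by 0.86 to 0.996 on the log2 scale, and none of the 7 held without each 1 of the 6 libraries. Their count was 1, 1 and 11 without the JEGS libraries of days 2, 4 and 6, 3 and 1 without the JEGS-Minus-Esrrb libraries of days 2 and 4, 1 without day 2, 0 without day 4 and 16 without day 6. Of these genes JEGS was above in 26 on day 2, 29 on day 4 and 15 on day 6.

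Of the 13 mitochondrially encoded transcripts, 9 (69.2%) rose and 0 fell, against 4.04% and 2.6% of all genes tested. mt-Nd1, of complex I, had 5900, 5955 and 4868 CPM in JEGS and 3530, 3536 and 3341 CPM in JEGS-Minus-Esrrb, a log2 fold change of 0.69 ± 0.12 (edgeR adjusted p = 0.0023), and mt-Co1, of complex IV, had 14565, 15818 and 12494 CPM in JEGS and 10005, 10254 and 10877 CPM in JEGS-Minus-Esrrb. mt-Co2, mt-Co3 and mt-Atp6 were listed at 0 in 3 or more of the 6 libraries while mt-Nd4 and mt-Cytb were at 2757 to 7598 CPM, and their values are not used. Only mt-Nd1 held without each 1 of the 6 libraries. The count was 4 and 1 without the JEGS libraries of days 2 and 4, 2 without the JEGS-Minus-Esrrb library of day 4, 1 without day 2 and 0 without day 4.

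Of 22 genes of glucose uptake, glycolysis and lactate export, 5 (22.7%) rose and 0 fell, against 4.04% and 2.6% of all genes tested. Slc2a3 (Glut3), the high-affinity glucose transporter, had 169.9, 241.8 and 568.7 CPM in JEGS and 23.5, 73.8 and 138.1 CPM in JEGS-Minus-Esrrb, a log2 fold change of 2.12 ± 0.34 (edgeR adjusted p = 0.0014). Hk1, a hexokinase bound to mitochondria, had 140.5, 127.6 and 110.0 CPM in JEGS and 40.1, 19.4 and 62.2 CPM in JEGS-Minus-Esrrb, a log2 fold change of 1.68 ± 0.26 (edgeR adjusted p = 0.00093). Pdk1, a pyruvate dehydrogenase kinase, had 520.4, 549.7 and 401.2 CPM in JEGS and 134.8, 165.8 and 204.9 CPM in JEGS-Minus-Esrrb, a log2 fold change of 1.6 ± 0.24 (edgeR adjusted p = 0.00092). No library of these 3 genes overlapped between groups, and each held without each 1 of the 6 libraries. Pfkp and Slc16a1, a phosphofructokinase and a lactate carrier, rose by 1.18 and 0.73 on the log2 scale. The count was 3 without any 1 of the JEGS libraries or without the JEGS-Minus-Esrrb library of day 2, 3 without day 2 and 0 without day 4.

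**Figure D3:**
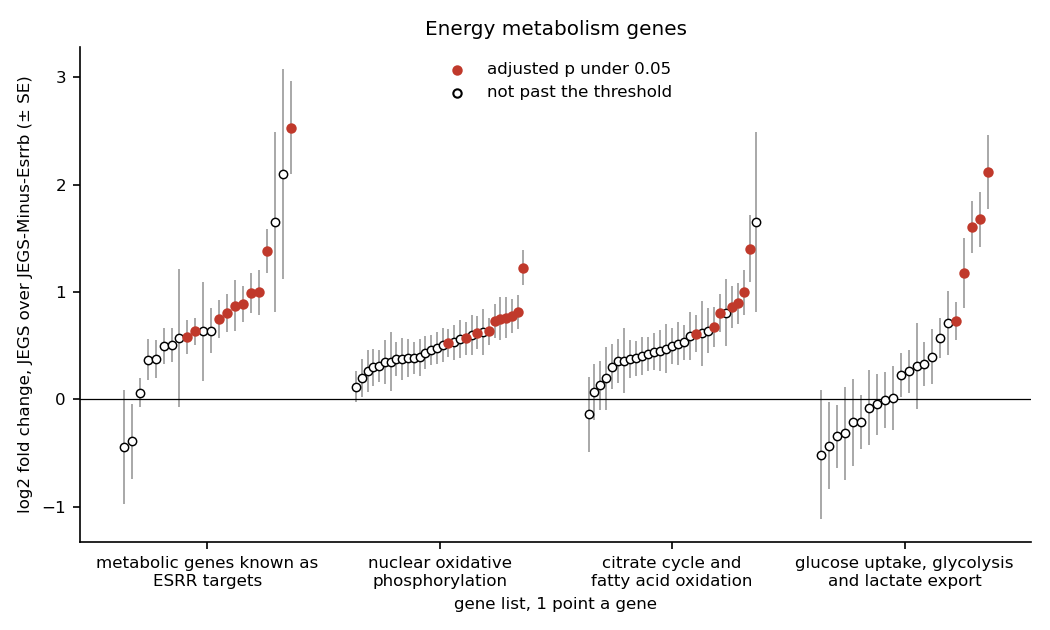
Log2 fold change of JEGS over JEGS-Minus-Esrrb (± SE) for each tested gene of 4 metabolic lists with at least 10 reads over the 6 libraries, in rising order within a list, filled where the edgeR adjusted p was under 0.05. All 30 oxidative phosphorylation genes lie above 0, and Slc2a3 tops the glucose list at 2.12.

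Among mesenchymal identity genes more passed as lower than as higher in JEGS. Of 27 tested, 12 (44.4%) fell and 1 (3.7%) rose, against 2.6% and 4.04% of all genes tested. Their median log2 fold change was -0.85. Snai1, the Snail repressor of epithelial genes, had 51.0, 28.0 and 41.9 CPM in JEGS and 143.0, 140.1 and 224.4 CPM in JEGS-Minus-Esrrb, a log2 fold change of -2.12 ± 0.28 (edgeR adjusted p = 0.00032). Snai2 (Slug) had 14.7, 8.96 and 9.38 CPM in JEGS and 28.6, 26.9 and 153.1 CPM in JEGS-Minus-Esrrb, a log2 fold change of -2.48 ± 0.57 (edgeR adjusted p = 0.014). Twist2, a basic helix-loop-helix factor of mesenchyme, had 23.2, 17.4 and 16.2 CPM in JEGS and 57.9, 70.1 and 70.8 CPM in JEGS-Minus-Esrrb, a log2 fold change of -1.86 ± 0.31 (edgeR adjusted p = 0.0018). Col6a2, of the beaded-filament collagen, had 18.5, 14.6 and 17.5 CPM in JEGS and 90.9, 70.1 and 34.5 CPM in JEGS-Minus-Esrrb, a log2 fold change of -1.88 ± 0.31 (edgeR adjusted p = 0.0016). In all 4 the groups did not overlap, and the gap of Snai2 was widest on day 6. Prrx2, Osr1, Col6a1, Pdgfrb, Mmp2, Twist1, Postn and Zeb1 fell by 0.85 to 1.79 on the log2 scale. The intermediate filament Vim rose, at 857.0, 846.9 and 660.6 CPM in JEGS and 467.9, 333.4 and 408.0 CPM in JEGS-Minus-Esrrb, a log2 fold change of 0.99 ± 0.17 (edgeR adjusted p = 0.0021). Thy1, the surface marker often used to sort fibroblasts, was at 25.5, 20.2 and 17.5 CPM in JEGS and 30.5, 21.3 and 10.9 CPM in JEGS-Minus-Esrrb and did not pass. Snai1, Twist2, Col6a1, Col6a2, Pdgfrb and Vim held without each 1 of the 6 libraries. The count of 12 was 5 without the JEGS library of day 4 or of day 6, 5 without the JEGS-Minus-Esrrb library of day 6, 1 without day 4 and 6 without day 6.

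Collagens moved in both directions, 4 (20%) higher and 4 (20%) lower of 20 tested, against 4.04% and 2.6% of all genes tested. Col12a1, which joins collagen fibers, had 117.4, 73.3 and 41.9 CPM in JEGS and 36.9, 19.4 and 15.5 CPM in JEGS-Minus-Esrrb, a log2 fold change of 1.69 ± 0.29 (edgeR adjusted p = 0.0021), and Col5a3, Col5a2 and Col3a1 rose by 0.98 to 1.53 on the log2 scale. Col8a2 and Col9a1 fell, the second with 16.2, 24.6 and 15 CPM in JEGS and 95.4, 238.3 and 226.7 CPM in JEGS-Minus-Esrrb, a log2 fold change of -3.25 ± 0.42 (edgeR adjusted p = 0.00027). Col1a1 and Col1a2, the main collagen of fibroblasts and bone, fell by 0.79 and 1.10 on the log2 scale. Col8a2, Col9a1, Col12a1 and Col5a2 held without each 1 of the 6 libraries. The count of higher members was 2 without the JEGS library of day 4 or the JEGS-Minus-Esrrb library of day 2 or 6, 2 without day 2 and 0 without day 4. That of lower members was 2 without either day 2 library, 2 without day 2 and 2 without day 4.

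Of 17 genes of the bone and cartilage lineages tested, 5 (29.4%) fell and 1 (5.88%) rose, against 2.6% and 4.04% of all genes tested. Their median log2 fold change was -0.25. Beside Sp7 and Col9a1, a cartilage collagen, Comp, Sox5 and Hapln1, all of cartilage, fell by 1.34 to 2.23 on the log2 scale. The member that rose was Spp1 (osteopontin), a secreted phosphoprotein that is also an AP-1 and macrophage gene, with 355.9, 501.0 and 423.7 CPM in JEGS and 69.9, 50.7 and 31.7 CPM in JEGS-Minus-Esrrb, a log2 fold change of 3.09 ± 0.34 (edgeR adjusted p = 8.8e-05). Sox9 and Runx2, the master factors of cartilage and bone, did not pass, at 16.9 to 61.0 and 3.12 to 13.9 CPM in JEGS and 25.6 to 55.2 and 3.45 to 21.0 CPM in JEGS-Minus-Esrrb. Sp7, Col9a1 and Spp1 held without each 1 of the 6 libraries. The count of 5 was 2 without any 1 of the day 2 or day 4 libraries and 2 without day 2 or day 4.

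Of 20 BMP ligand and target genes tested, 6 (30%) fell and 1 (5%) rose, against 2.6% and 4.04% of all genes tested. Their median log2 fold change was -0.81. Msx1, a homeobox target of BMP signaling, had 23.9, 34.1 and 31.2 CPM in JEGS and 195.2, 207.7 and 203.1 CPM in JEGS-Minus-Esrrb, a log2 fold change of -2.76 ± 0.20 (edgeR adjusted p = 2.1e-06). Gata2, a zinc finger factor of blood and trophoblast, had 17.8, 8.40 and 16.9 CPM in JEGS and 102.4, 60.1 and 73.7 CPM in JEGS-Minus-Esrrb, a log2 fold change of -2.49 ± 0.35 (edgeR adjusted p = 0.00051). Atoh8 had 2.32, 10.1 and 7.50 CPM in JEGS and 53.4, 27.5 and 27.6 CPM in JEGS-Minus-Esrrb, a log2 fold change of -2.33 ± 0.45 (edgeR adjusted p = 0.0054). Id1, a direct BMP target, had 50.2, 30.8 and 78.8 CPM in JEGS and 92.2, 106.3 and 316.5 CPM in JEGS-Minus-Esrrb, a log2 fold change of -1.63 ± 0.38 (edgeR adjusted p = 0.017). No day of JEGS reached the lowest JEGS-Minus-Esrrb level in these 4 genes. The ligand Bmp7 and the inhibitor Smad6 fell by 1.23 and 1.16 on the log2 scale, and the ligand Bmp6 rose by 2.12, a call that held in 2 of the 6 fits without 1 library. Msx1, Gata2 and Atoh8 held without each 1 of the 6 libraries. The count of 6 was 3 without the JEGS library of day 2 or of day 4 and 1 without day 4.

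Of 24 Wnt feedback and target genes tested, 4 (16.7%) fell and 0 rose, against 2.6% and 4.04% of all genes tested. Their median log2 fold change was -0.20. Axin2, the most used readout of canonical Wnt signaling, had 66.4, 131.5 and 126.9 CPM in JEGS and 160.2, 237.1 and 254.9 CPM in JEGS-Minus-Esrrb, a log2 fold change of -1.01 ± 0.20 (edgeR adjusted p = 0.0062). Wif1, a secreted Wnt inhibitor, had 55.6, 43.1 and 31.9 CPM in JEGS and 126.5, 133.9 and 127.2 CPM in JEGS-Minus-Esrrb, a log2 fold change of -1.56 ± 0.25 (edgeR adjusted p = 0.0014). Nkd2 and Nkd1, inhibitors induced by Wnt, fell by 2.23 and 0.67 on the log2 scale. Axin2 and Wif1 held without each 1 of the 6 libraries. The count was 2 without the JEGS library of day 2 or of day 4, 2 without the JEGS-Minus-Esrrb library of day 4 and 0 without day 4. Of 16 endothelial genes 2 (12.5%) fell. Sox18, of endothelial cells, had 14.7, 10.6 and 8.12 CPM in JEGS and 61.7, 80.7 and 43.2 CPM in JEGS-Minus-Esrrb (edgeR adjusted p = 0.0031), and Kdr, the main VEGF receptor, had 30.1, 23.5 and 33.8 CPM in JEGS and 87.1, 114.5 and 69.6 CPM in JEGS-Minus-Esrrb (edgeR adjusted p = 0.003). The defining markers Pecam1 and Cdh5 were present in all 6 libraries, at 0.772 to 31.2 and 3.09 to 11.9 CPM in JEGS and 1.27 to 8.63 and 3.81 to 47.2 CPM in JEGS-Minus-Esrrb. The summed level of the 16 genes was 162.9 to 313.5 CPM in JEGS and 371.2 to 541.0 CPM in JEGS-Minus-Esrrb. Both calls held without each 1 of the 6 libraries and neither without day 4.

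Of 20 AP-1 responsive genes tested, 5 (25%) rose and 0 fell, against 4.04% and 2.6% of all genes tested. The summed level of the 23 listed was 691.2 to 834.6 CPM in JEGS and 122.0 to 246.0 CPM in JEGS-Minus-Esrrb, Spp1 included. Plau, the urokinase protease, had 40.9, 38.6 and 31.2 CPM in JEGS and 11.4, 4.38 and 2.88 CPM in JEGS-Minus-Esrrb, a log2 fold change of 2.59 ± 0.39 (edgeR adjusted p = 0.00093). Hbegf, a ligand of the EGF receptor, had 111.2, 58.8 and 39.4 CPM in JEGS and 21.6, 6.88 and 10.9 CPM in JEGS-Minus-Esrrb, a log2 fold change of 2.39 ± 0.42 (edgeR adjusted p = 0.003). Dusp1, a phosphatase that shuts off MAP kinases, and the protease inhibitor Timp1 rose by 2.00 and 1.80 on the log2 scale. All of these but Timp1 held without each 1 of the 6 libraries, and the count was 1 without day 4. Of 15 immediate early genes 2 rose (Dusp1 and Ier3) and 0 fell, and 0 rose without day 4. Jdp2, a repressor that dimerizes with Jun proteins at AP-1 sites, was delivered to both groups. It was lower in JEGS on each day, a difference that did not pass (edgeR adjusted p = 0.24) but passed with no filter on low counts (0.0083). Its part in these counts was not tested.

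Of 21 SRF and YAP target genes, 6 (28.6%) rose and 0 fell, against 4.04% and 2.6% of all genes tested. Ccn2 (Ctgf), a matricellular YAP target, had 84.2, 86.2 and 60 CPM in JEGS and 50.9, 19.4 and 23.0 CPM in JEGS-Minus-Esrrb, a log2 fold change of 1.36 ± 0.30 (edgeR adjusted p = 0.013). F3, tissue factor, had 20.9, 16.8 and 7.50 CPM in JEGS and 4.45, 3.75 and 0.576 CPM in JEGS-Minus-Esrrb, a log2 fold change of 2.36 ± 0.43 (edgeR adjusted p = 0.0036). Ankrd1 and Nuak2 rose by 2.71 and 2.12 on the log2 scale, and Vcl and Cnn2 by 0.64 and 0.75. F3 and Nuak2 held without each 1 of the 6 libraries, and the count was 3 without any 1 of the JEGS library of day 4 and the JEGS-Minus-Esrrb libraries of days 4 and 6, and 0 without day 4. Of 27 epithelial genes 4 (14.8%) rose and 1 (3.7%) fell. Epcam, an early surface marker of reprogrammed cells, had 0.772, 22.4 and 75.0 CPM in JEGS and 1.27, 3.75 and 10.9 CPM in JEGS-Minus-Esrrb, a log2 fold change of 2.41 ± 0.63 (edgeR adjusted p = 0.03). Krt19, Cldn4 and Esrp2 rose by 1.24 to 1.52 on the log2 scale, and the tight junction receptor Lsr fell by 1.39. Cdh1 (E-cadherin) was at 91.9, 140.5 and 143.1 CPM in JEGS and 221.2, 200.8 and 35.1 CPM in JEGS-Minus-Esrrb and did not pass. None of these 5 calls held without each 1 of the 6 libraries: the count of higher members was 1 without the JEGS library of day 2 or of day 4, 2 without the JEGS-Minus-Esrrb library of day 4 or of day 6, and 0 without day 4.

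Single members of other lineages moved, where 4.04% of all genes tested were higher and 2.6% lower, so 1 call in a short list says little about the lineage. Of 19 trophoblast genes 4 rose and 1, Gata2, fell. Eomes, a factor of trophoblast and mesendoderm, had 16.2, 12.3 and 21.2 CPM in JEGS and 1.91, 3.75 and 0.576 CPM in JEGS-Minus-Esrrb, a log2 fold change of 2.99 ± 0.54 (edgeR adjusted p = 0.0033). Psca, Tead4 and Hand1 were the other 3 that rose, the last with 20 reads against 1. The defining factor Cdx2 was at 0, 2.80 and 21.9 CPM in JEGS and 0, 3.75 and 2.30 CPM in JEGS-Minus-Esrrb and did not pass. Eomes and Psca held without each 1 of the 6 libraries, and the count was 2 without the JEGS library of day 2 or of day 4 or the JEGS-Minus-Esrrb library of day 4, and 1 without day 4. Of 20 primitive endoderm genes Foxq1, Gata6 and Sparc rose by 0.74 to 2.01 on the log2 scale and Sox7 fell by 1.95, and none held without each 1 of the 6 libraries. Their count of higher members was 0 and 1 without the JEGS libraries of days 2 and 4, 0 and 1 without the JEGS-Minus-Esrrb libraries of days 4 and 6, 1 without day 2 and 0 without day 4. Gata4 and Sox17, which define that lineage, were at most 6.88 and 13.1 CPM in JEGS and 3.75 and 6.33 CPM in JEGS-Minus-Esrrb. Of 10 germ line genes Kit rose, at 22.4, 57.1 and 93.8 CPM in JEGS and 10.8, 30.0 and 29.4 CPM in JEGS-Minus-Esrrb. Of 10 muscle genes Mylpf and Tnnt3 rose, the first with 0, 22.9 and 116.9 CPM in JEGS and 1.27, 1.25 and 1.15 CPM in JEGS-Minus-Esrrb. Of 11 neural genes Gfap rose, with 44 reads in JEGS, most of them on day 4, and 0 in JEGS-Minus-Esrrb, and of 6 keratinocyte genes Sfn rose. Kit lost the call without the JEGS library of day 4 or the JEGS-Minus-Esrrb library of day 6. Gfap kept it only without the JEGS library of day 6 or the JEGS-Minus-Esrrb library of day 2. The count of 2 muscle genes was 1 without either day 6 library. Without day 4 the counts were 0 for germ line, neural and muscle genes and 1 for keratinocyte genes.

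Few cell cycle genes passed the test, with median log2 fold changes of -0.17 for replication and -0.13 for mitosis. The calls in replication genes (3.33% lower) and in p53 and senescence genes (4.55% higher) are near the shares over all genes tested. Those shares were 4.04% higher and 2.6% lower. Of 30 replication genes 1 fell, Gins2, at 29.3, 44.2 and 56.2 CPM in JEGS and 188.8, 119.5 and 73.1 CPM in JEGS-Minus-Esrrb, a log2 fold change of -1.57 ± 0.34 (edgeR adjusted p = 0.0097), and it lost the call without the JEGS library of day 2. By day, JEGS was above in 6, 1 and 25 of the 30 replication genes and in 10, 2 and 19 of the 30 mitosis genes, on days 2, 4 and 6. Of 22 p53 target and senescence genes Gdf15, a stress cytokine, rose, at 62.5, 36.9 and 26.2 CPM in JEGS and 11.4, 4.38 and 11.51 CPM in JEGS-Minus-Esrrb (edgeR adjusted p = 0.0059), and 0 fell; 3 rose without the JEGS library of day 6, 2 without the JEGS-Minus-Esrrb library of day 2 and 0 without day 4. No gene passed in edgeR among 124 tested of the mitosis, 2-cell stage, adipocyte, interferon, sterol synthesis, amino acid stress, macrophage, red blood cell and sex-linked lists. Of these, 9 had an unadjusted p under 0.05, and 0 passed by DESeq2 or by limma. Under other edgeR settings at most 1 member of a list passed in a direction. An adipocyte gene was higher without the JEGS library of day 6, an interferon gene without the JEGS-Minus-Esrrb library of day 2 and a red blood cell gene without that of day 6. With no filter on low counts, 1 interferon and 1 stress gene passed in each direction, 1 sterol synthesis gene was higher, and 1 mitosis and 1 sex-linked gene were lower.

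**Figure D4:**
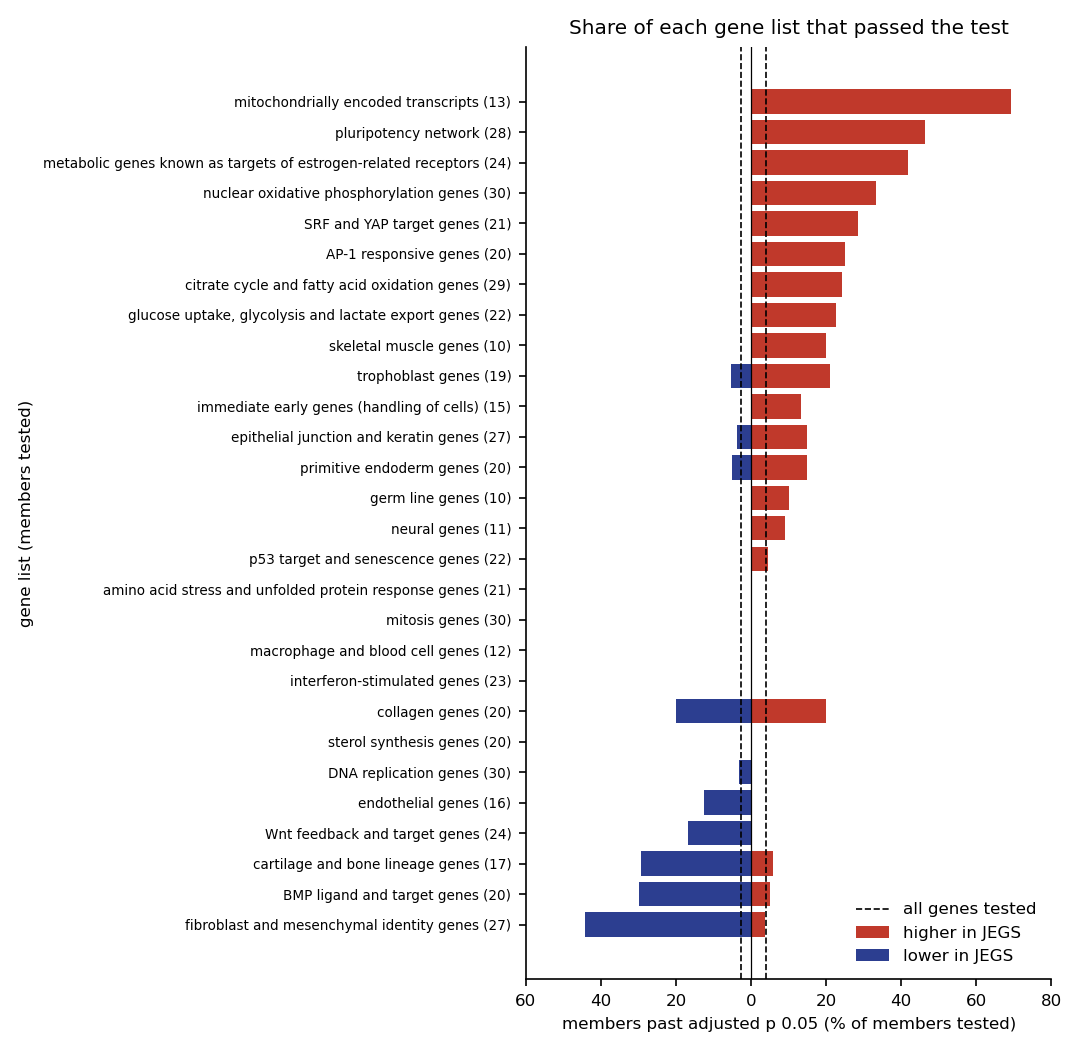
Share of the tested members of each gene list with at least 10 tested members that was higher (right) or lower (left) in JEGS at an edgeR adjusted p under 0.05, with the share over all genes tested as dashed lines (4.04% higher, 2.6% lower). Lists of mitochondrial, pluripotency and AP-1 genes extend to the right and those of mesenchymal, BMP, bone and Wnt genes to the left.

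Whether the difference between the groups changed from day 2 to day 6 was asked with a slope for each group. Of 16603 genes, 41 (0.247%) passed at an edgeR adjusted p under 0.05. The difference grew towards JEGS in 20 (0.12%) and away from it in 21 (0.126%). Pou5f1 rose by 1.32 ± 0.15 log2 units a day (edgeR adjusted p = 0.00072). Klf2 rose by 2.15 ± 0.32 log2 units a day (edgeR adjusted p = 0.0059). Sall1, a spalt factor of embryonic stem cells and kidney, had 10.0, 24.1 and 61.9 CPM in JEGS and 178.6, 105.7 and 43.7 CPM in JEGS-Minus-Esrrb, with a slope of 1.16 ± 0.16 log2 units a day (edgeR adjusted p = 0.0047). In these genes JEGS was below JEGS-Minus-Esrrb on day 2 and above it on day 6. Fgfbp1, a carrier of FGFs, and Acta2, smooth muscle actin, had slopes of 1.22 and 0.96 with the same crossing.

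Other genes had a downward slope. Col2a1, the main collagen of cartilage, had 54.1, 32.5 and 26.9 CPM in JEGS and 4.45, 22.5 and 77.7 CPM in JEGS-Minus-Esrrb, a slope of -1.24 ± 0.15 log2 units a day (edgeR adjusted p = 0.0013). Scube3, a secreted BMP and TGF-beta coreceptor, had 68.7, 67.2 and 36.9 CPM in JEGS and 10.2, 26.9 and 130.1 CPM in JEGS-Minus-Esrrb, a slope of -1.18 ± 0.14 (edgeR adjusted p = 0.00072). Both were higher in JEGS on days 2 and 4 and lower on day 6. Vnn1, a pantetheinase, had 91.1, 30.2 and 16.9 CPM in JEGS and 1.91, 3.75 and 6.33 CPM in JEGS-Minus-Esrrb, a slope of -1.04 ± 0.19 (edgeR adjusted p = 0.026). It stayed higher in JEGS on all 3 days. Idh2 (-0.63, edgeR adjusted p = 0.0047), Pdgfra (-0.61, 0.006) and Id2 (-0.83, 0.012) also had downward slopes, and Gins2 (0.57, 0.03) and Uhrf1 (0.53, 0.041) upward ones. These counts rest on single libraries. Without the JEGS libraries of days 2, 4 and 6 they were 7, 29 and 0 up and 7, 32 and 1 down. Without the JEGS-Minus-Esrrb libraries of days 2, 4 and 6 they were 326, 106 and 4 up and 283, 82 and 2 down. None of the 5 named genes in either direction kept its call without either day 6 library. Limma on log2(TPM + 1) called 0.

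The other leave-out groups, JEGS-Minus-Glis1, JEGS-Minus-Jdp2 and JEGS-Minus-Sall4, all received Esrrb and lack 1 other factor each. Their mean was set against JEGS-Minus-Esrrb in the 20 libraries of days 0, 1, 3, 5 and 7, none of which is among the 6 above, though the JEGS-Minus-Esrrb cultures may be the same. Of 17097 genes 4641 (27.1%) passed, 2283 (13.4%) higher and 2358 (13.8%) lower. Esrrb itself was at 4012 to 8352 CPM with Glis1 left out, 538.5 to 2599 CPM with Jdp2 left out and 4992 to 7038 CPM with Sall4 left out, and at 7.05 to 12.4 CPM in JEGS-Minus-Esrrb. Levels of Nr0b1 were 0 to 20.5 CPM with Glis1 left out, 0 to 6.14 with Jdp2 left out and 0 to 14.0 with Sall4 left out, and 0 in all 5 JEGS-Minus-Esrrb libraries. Pdk4 had a log2 fold change of 4.54 ± 0.31 (edgeR adjusted p = 4.9e-08), with 94.6 to 317.6, 38.5 to 48.4 and 173.0 to 452.8 CPM in those 3 groups against 1.18 to 12.3 CPM in JEGS-Minus-Esrrb. Lefty2 and Nr5a2, both higher in JEGS, did not pass here. Lefty2 was at 0 to 0.85, 0 to 9.92 and 0 to 0.558 CPM in those groups and 0 to 6.20 CPM in JEGS-Minus-Esrrb, a log2 fold change of -1.38 ± 0.89 (edgeR adjusted p = 0.28). Nr5a2 was at 0 to 1.28, 0 to 3.31 and 0 CPM in those groups and 0 to 2.82 CPM in JEGS-Minus-Esrrb, a log2 fold change of -1.57 ± 0.996 (edgeR adjusted p = 0.28). Pglyrp1 was at 0 to 16.2, 1.15 to 276.8 and 1.12 to 76.6 CPM in those groups and 0 to 5.29 CPM in JEGS-Minus-Esrrb, with the groups overlapping (edgeR adjusted p = 0.001), and against the libraries without Glis1 alone its difference was 0.015 on the log2 scale (0.99). Psca was higher by 5.64 ± 0.80 on the log2 scale (edgeR adjusted p = 7.1e-05). Ano5 was at 0.493 to 27.0, 2.30 to 11.3 and 11.7 to 124.3 CPM against 0 to 0.759 CPM in JEGS-Minus-Esrrb (edgeR adjusted p = 1.5e-06). Sp7 was at 0 to 2.54, 0 to 4.29 and 0 to 0.564 CPM against 2.28 to 67.5 CPM in JEGS-Minus-Esrrb, a log2 fold change of -5.39 ± 0.41 (edgeR adjusted p = 1.1e-07). Msx1 was at 2.04 to 14.0, 22.4 to 48.0 and 7.33 to 14.2 CPM against 56.9 to 246.7 CPM, a log2 fold change of -3.68 ± 0.27 (edgeR adjusted p = 6.6e-08). In Pdk4 and Msx1, no library that received Esrrb overlapped JEGS-Minus-Esrrb. The share of all genes without overlap in these 20 libraries was not counted, so this adds no support for either gene.

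Set side by side, the lists gave these counts in the 20 libraries, where 13.4% of all genes tested were higher and 13.8% lower. Of 24 metabolic genes known as targets of the family 16 were higher and 0 lower, of 30 oxidative phosphorylation genes 19 and 0, of 29 citrate cycle and fatty acid oxidation genes 18 and 0, and of 20 AP-1 responsive genes 9 and 0. Of 24 tested pluripotency genes 2 (8.33%) were higher and 5 (20.8%) lower. Pou5f1 had a log2 fold change of -2.64 ± 0.76 (edgeR adjusted p = 0.015), at a median of 1.02, 2.15 and 0.339 CPM with Glis1, Jdp2 and Sall4 left out and 6.75 CPM in JEGS-Minus-Esrrb. This call was lost without the JEGS-Minus-Esrrb library of day 1 (adjusted p = 0.095) or of day 3 (0.058), and against the libraries without Jdp2 alone the difference was -0.07 (0.97). Tfcp2l1 was higher by 2.54 ± 0.38 on the log2 scale (edgeR adjusted p = 0.00011). Of 21 BMP genes 2 (9.52%) were higher and 12 (57.1%) lower, and of 24 Wnt genes 0 and 9 (37.5%). Of 28 mesenchymal genes 4 (14.3%) were higher, near the share over all genes, and 8 (28.6%) lower. Of 30 replication genes 0 were higher and 25 (83.3%) lower, and of 30 mitosis genes 0 and 27 (90%). Each group in the mean lacked another factor. The mean was also lower than JEGS-Minus-Esrrb in Sall4 (-3.54 on the log2 scale), Glis1 (-3.03) and Jdp2 (-1.35). The part of these factors in the counts was not tested, and the counts are not split by group. Whether these counts differ from those of JEGS against JEGS-Minus-Esrrb was not tested.

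**Figure D5:**
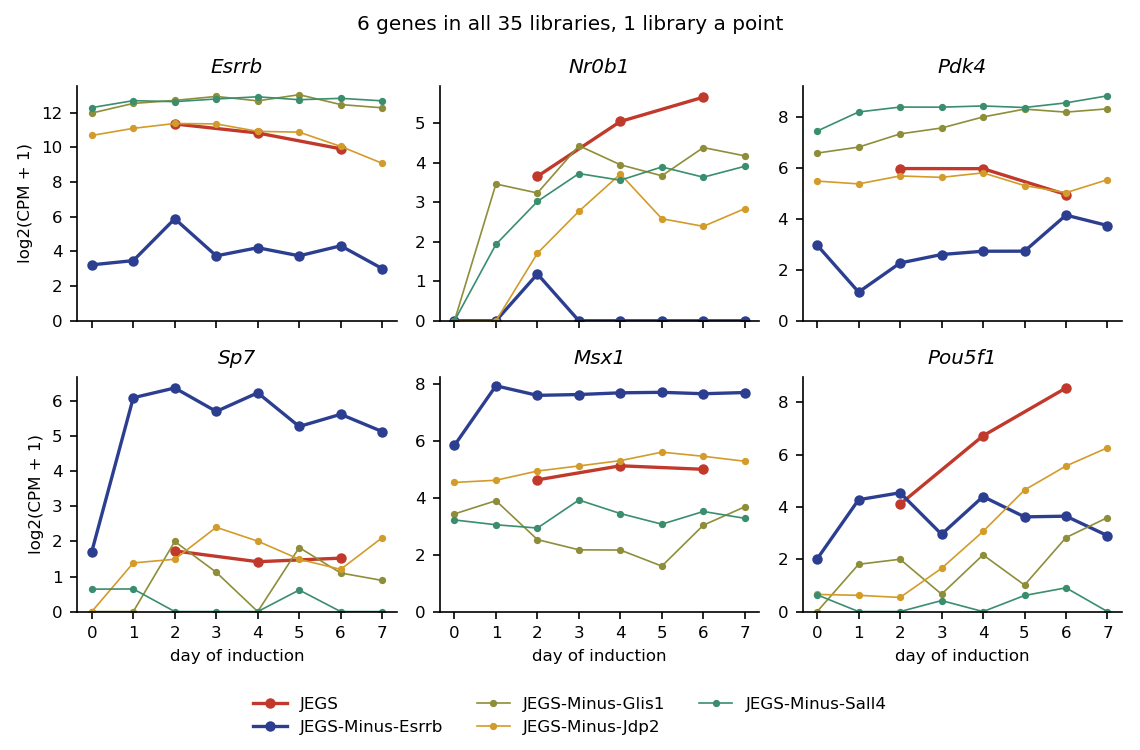
Level of 6 genes, as log2(CPM + 1), by day in all 35 libraries, 1 library a point, JEGS and JEGS-Minus-Esrrb in thick lines. Nr0b1 and Pdk4 are low and Sp7 and Msx1 high in JEGS-Minus-Esrrb from day 1 on, whereas Pou5f1 in JEGS, at 104.1 and 371.9 CPM on days 4 and 6, is above every other group on these days.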

How the data were processed

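Gene tables of 35 RNA-seq libraries were used, 15 of them from days 2, 4 and 6. Reads were handled with bcl2fastq, Bowtie2 and RSEM on build mm10, per the submitters' processing notes, and versions are not given in the sources used here. The authors deposited expected counts, TPM and FPKM values per gene, per the file headers, with transcript lengths. TPM served for 1 alternative, and FPKM was not used. Expected counts were rounded to whole numbers. Of 54752 identifiers, 54723 matched a symbol. CPM are scaled by edgeR's TMM factors over all 35 libraries and are not per length, so levels are compared within a gene.

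Differences of JEGS over JEGS-Minus-Esrrb were tested with edgeR's quasi-likelihood F test (edgeR 4.0.16, R 4.3.3) over the 15 libraries of all 5 groups, with day as a factor, in genes that reached 1 CPM in 3 or more libraries, with Benjamini-Hochberg adjustment over all genes tested and a threshold of 0.05. The spread came from all 5 groups (8 residual degrees of freedom). A linear slope per group tested the change of the difference with day (5 degrees of freedom), and the 20 leave-out libraries of the other days were fitted likewise. A standard error is the log2 fold change divided by the square root of F. In 195 genes of the slope fit and 77 of the 20-library fit edgeR gave no usable statistic, and no test is given for them. On simulated counts of 16067 genes, the test of JEGS against JEGS-Minus-Esrrb recovered 33 of 100 genes changed by a log2 of 1 and 85 of 100 changed by a log2 of 2, with 5 calls among 15867 unchanged genes. The simulated libraries were independent, with 1 mean per gene before the change, no effect of day, and changed genes at 5 CPM or more. These rates therefore do not cover days of a shared culture or differences that change with day. Depth was 1266379 to 3608456 counts per library, and counting intervals (95%) and the floor of 3 counts cover counting error only.

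Named genes were the 4 factors, the 12 with the largest change in each direction among called genes that averaged 5 CPM or more over the 6 libraries and kept 1 sign on all days, the 5 largest slopes in each direction, and up to 4 members with the largest change of each list, beside the pluripotency and receptor members. Other list members were added after their values were seen. The members and lists were chosen with earlier results of these data known. Alternatives were DESeq2 1.42.0, its size factors, no filter, limma 3.58.1 on log2(TPM + 1), equal depth (1266000 counts), no day term, other sets of libraries, and each library or day left out.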

Additional observations from a re-analysis of the deposited data

Results flagged for a closer look

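The difference between JEGS and JEGS-Minus-Esrrb changed with day, by edgeR's test of the difference of slopes, towards JEGS in 20 genes and away from it in 21. The slopes of the named genes towards JEGS were 2.155 log2 units a day in Klf2, 1.32 in Pou5f1, 1.218 in Fgfbp1, 1.164 in Sall1 and 0.964 in Acta2. Those away from JEGS were -4.66 in Kansl2-ps, -1.239 in Col2a1, -1.177 in Scube3, -1.04 in Vnn1 and -0.905 in Cacna1c. Kansl2-ps, a pseudogene, was at 23.9, 0 and 0 CPM in JEGS and 0, 2.502 and 6.91 CPM in JEGS-Minus-Esrrb, so its slope rests on values at 0, and its reads may be shared with its parent gene. Cacna1c, a calcium channel subunit, was at 24.7, 11.2 and 14.4 CPM in JEGS and 6.99, 17.5 and 48.9 CPM in JEGS-Minus-Esrrb.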

How the results depend on the processing

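The counts of genes that differed between JEGS and JEGS-Minus-Esrrb (670 higher, 431 lower) were 1029 and 744 with no filter on low counts, 333 higher with limma on log2(TPM + 1), 401 higher with the 6 libraries alone, 333 and 237 without day 2, and 43 and 29 without day 4. Leaving out 1 library gave 279 to 661 higher and 190 to 391 lower. Day is the block that pairs the libraries in this design, and without the replicate block 484 were higher and 315 lower. DESeq2 shared 1070 of the 1101 calls, and the fit without day 4 shared 70. The slope counts (20 towards JEGS, 21 away) were 31 towards JEGS by DESeq2, 153 and 182 with no filter, 0 and 0 with limma, 44 and 35 at equal depth, 10 and 6 with the 6 libraries alone, and 0 to 326 and 1 to 283 with 1 library left out. The counts of the other leave-out groups against JEGS-Minus-Esrrb (2283 higher, 2358 lower) were 896 and 422 for JEGS-Minus-Jdp2 alone, 3970 and 3798 with all 32 leave-out libraries, and 1531 to 2640 and 1394 to 2460 with 1 library left out. The causes of these shifts were not tested, and the reduced fits also hold fewer libraries. No named gene past the threshold changed sign under the alternatives run. At 1266379 to 1682386 counts a library, a level of a few CPM rests on few reads.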
